A study of Rattus norvegicus with 6 samples.

Results

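The genes described here serve protein folding in the endoplasmic reticulum (ER), export from it and the unfolded protein response (UPR). They were chosen by name, as a list of 35 genes, and 34 of them were measured by a probe set that names a single gene, of 22093 genes tested in all. Manf was listed too, but its probe set also names other genes, so it has no value here. A gene with several probe sets is read from the brightest, which among the ER genes concerned only Hyou1. Total RNA of tendon from Sprague-Dawley rats was hybridised to a rat transcriptome array, 1 array per sample, with 3 samples of injured tendon and 3 samples of tendon after control surgery. Both groups were taken 1 week after the operation, and rats were assigned to them at random, per the labels' protocols. Neither which tendon was injured, nor how, nor the age and sex of the rats is given in the sources used here. The labels call the samples biological replicates. The sample titles name a rat array and the protocol a mouse array, and the probe sets are annotated with rat genes.

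The ER is where secreted proteins such as collagen are threaded into the lumen, folded by chaperones and disulfide isomerases, checked by lectins, and loaded into COPII vesicles for the Golgi. When unfolded proteins build up, the sensors IRE1 (gene Ern1), PERK (Eif2ak3) and ATF6 (Atf6) signal to the nucleus through the factors XBP1, ATF4 and ATF6, and chaperone and degradation genes are switched on. Tenocytes, which secrete large amounts of procollagen, depend on this machinery, and collagen cargo needs the export factors SEC23A, SEC24D and TANGO1 (Mia3) and the factor CREB3L2 in the cartilage and connective tissue of vertebrates.

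The UPR is known to act on promoters through the ER stress element, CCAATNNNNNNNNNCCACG, which NF-Y and ATF6 or XBP1 bind, and through the shorter element TGACGTGG. The reverse complement of the shorter element holds the CCACG end of the longer one. RefSeq promoters of 300 bases, from 250 bases before to 50 bases after a gene's start on GRCr8, were matched to 27 of the 35 genes by symbol. On either strand, 7 of these 27 genes held the ER stress element, against 22 of all 33469 promoters (0.0657%), from 21 genes. The list was chosen to hold UPR genes, so a higher share among them is not a result of these data. Sites are printed for 6 of the 7, which are Hspa5, Hsp90b1, Dnajc3, Creld2, Calr and Xbp1. They are shown to let the element be compared with the response of each gene. Each is written 5′ to 3′ on the strand that reads CCAAT first, with both ends of the element in capitals and 10 flanking bases on each side.
Hspa5, chr3:38452963-38453001, + strand, 24 bases before the start: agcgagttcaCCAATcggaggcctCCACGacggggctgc
Xbp1, chr14:84604548-84604586, + strand, 46 bases before the start: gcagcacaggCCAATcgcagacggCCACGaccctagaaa
Hsp90b1, chr7:23012337-23012375, + strand, 53 bases before the start: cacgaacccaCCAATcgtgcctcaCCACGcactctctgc
Hsp90b1, chr7:23012441-23012479, - strand, 157 bases before the start: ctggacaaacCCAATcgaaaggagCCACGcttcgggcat
Dnajc3, chr15:102432524-102432562, + strand, 114 bases before the start: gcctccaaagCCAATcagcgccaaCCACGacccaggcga
Creld2, chr7:121789229-121789267, - strand, 126 bases before the start: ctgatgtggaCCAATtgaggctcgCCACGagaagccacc
Calr, chr19:40213125-40213163, - strand, 213 bases before the start: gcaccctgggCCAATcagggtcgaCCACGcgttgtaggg

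The element TGACGTGG was found in 3 of the 27 genes, against 199 of the 33469 promoters (0.595%), from 187 genes, with the same limit. These are Kdelr3 and Sec23a, which had the largest differences among the 34 genes, and Hyou1, which had one of the smallest. The sites are shown with the element in capitals.
Kdelr3, chr7:112959521-112959548, - strand, 93 bases before the start: ggccgcgcggTGACGTGGcggggcggct
Sec23a, chr6:82440978-82441005, - strand, 83 bases before the start: tcctcccattTGACGTGGcagaggcggc
Hyou1, chr8:53602681-53602708, + strand, 183 bases before the start: ccgcgaaccgTGACGTGGgccaatccgc
The element TGATGNAAT, a form bound by ATF4 and CHOP, was in 366 of all promoters (1.09%) and in none of the 27 genes' promoters. A match describes the letters only, and no match says only that these letters are not in this window. The whole promoter of Hspa5, the standard UPR target, is shown because its ER stress element sits nearest to a gene start, with the element's ends in capitals (chr3:38452766-38453065, + strand).
Hspa5 promoter: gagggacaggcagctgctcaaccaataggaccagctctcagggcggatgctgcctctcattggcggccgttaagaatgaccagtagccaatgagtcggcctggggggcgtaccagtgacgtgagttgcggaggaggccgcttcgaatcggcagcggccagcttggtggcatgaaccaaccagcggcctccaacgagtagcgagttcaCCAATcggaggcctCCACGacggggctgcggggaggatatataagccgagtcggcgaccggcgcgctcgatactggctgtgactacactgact

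The arrays did not fall cleanly by group. Across all genes, injured replicates 2 and 3 correlated with each other at r = 0.965, while injured replicate 1 was closer to the control arrays (r = 0.951 to 0.966) than to injured replicate 2 (0.728) (genes are not independent replicates). The median unnamed probe set, a measure of background, read 5.59, 6.61 and 6.50 on injured replicates 1, 2 and 3 and 5.49, 5.58 and 5.79 on control replicates 1, 2 and 3. Several marker lists also differed between arrays, not all of them along this split. Skeletal muscle markers (9 of 9 measured) had a mean log2 signal of 18.38, 11.46 and 12.60 on the injured arrays and 18.00 to 19.06 on the control arrays, and all 9 lay above the background on every array. Tenocyte markers (9 of 9) were at 8.53, 7.28 and 8.39 on the injured arrays and 11.26 to 13.73 on the control arrays, and 1, 4 and 3 of them lay below the background on injured replicates 1, 2 and 3. On control arrays 0, 0 and 1 did, which was the transcription factor gene Scx. Endothelial markers (6 of 6) were at 11.37, 7.82 and 7.91 on the injured arrays and at 10.17 to 11.50 on the control arrays. Keratinocyte markers (5 of 6) were at 9.91 on injured replicate 1 and at 5.60 to 6.38 on the other 5 arrays. Markers of B and plasma cells, which hold much ER, stayed between 5.57 and 6.18 (8 of 10 measured), with 4, 7 and 7 of the 8 below the background on the injured arrays and 4, 4 and 5 on the control arrays. Adipocyte markers (5 of 5) were at 11.64, 6.65 and 6.91 on the injured arrays and 11.27 to 14.48 on the control arrays, macrophage markers (8 of 8) at 7.63, 7.77 and 7.80 in injured and 7.76 to 8.79 in control tendon, and neutrophil markers (7 of 7) at 5.47, 7.48 and 6.65 in injured and 5.31 to 5.58 in control tendon. The part of these cells in the ER results was not tested, and in bulk tissue fewer cells of a type and less RNA per cell cannot be told apart.

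Most ER genes had a lower mean signal in injured than in control tendon, although no single gene passed the adjusted test. The widest differences were among the export, isomerase and translocon genes. Roles differ in brightness too, and they were not compared at equal brightness. Of the 34 genes, 30 had a lower mean in injured tendon, 16 of them by at least 2-fold, and none was higher by 2-fold. The median log2 difference, injured minus control, was -0.97, against 0.15 over all genes tested. Taken array by array, the median of the 34 genes relative to the control mean was -0.18 for injured replicate 1, -1.26 for replicate 2 and -1.28 for replicate 3, where the median of all genes was -0.02, 0.24 and 0.18. At the adjusted threshold, 0 of 34 had a limma adjusted p under 0.05, as did 0 of all 22093 genes (0.0%), and the adjusted p of the ER genes lay between 0.322 and 0.952. At an unadjusted p under 0.05, 13 of the 34 genes (38.2%) were lower, against 7.25% of all genes, and 0 were higher, against 4.39% of all genes. All 3 injured arrays lay below all 3 control arrays for 11 of the 34 genes (32.4%), against 8.0% of all genes, and above them for 0, against 7.09% of all genes.

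**Figure D1:**
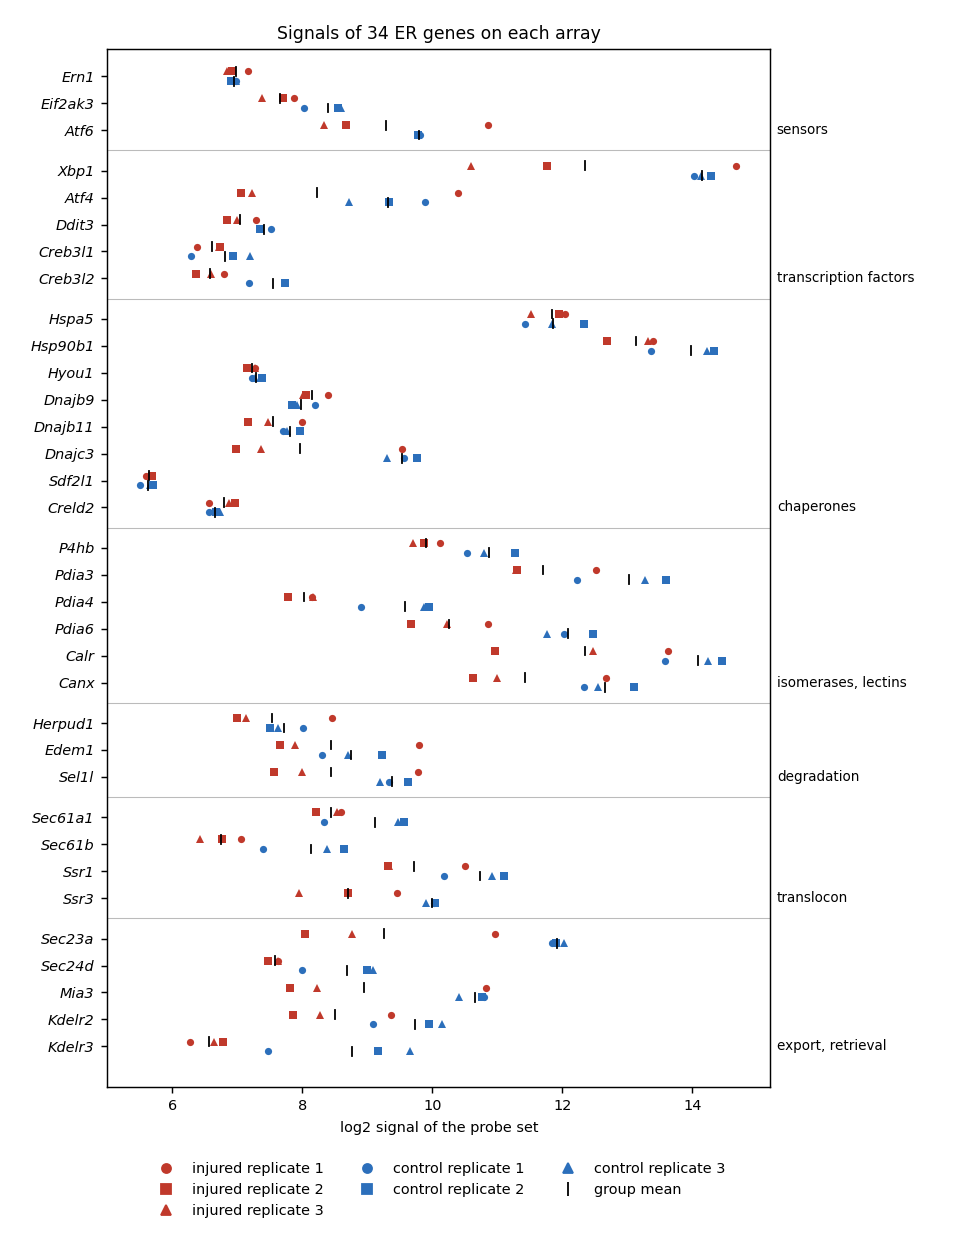
Log2 signal (horizontal axis) of each of the 34 ER genes on each array, with injured arrays in red above control arrays in blue, replicates by marker shape and the group mean as a black bar. Sec23a and Kdelr3 show wide gaps between the groups, Hspa5 and Ern1 overlap, and for Atf6, Atf4 and Xbp1 injured replicate 1 lies above the control arrays while injured replicates 2 and 3 lie below them.

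The differences of all genes moved with brightness, whose part in the ER differences was not tested. Most ER genes are brighter than the median gene, and bright genes in general had lower signals on injured replicates 2 and 3. Split by the mean signal over all 6 arrays, a split chosen after the values were seen, the 13647 genes under 7 had a median difference of 0.33, against 0.02 for the 4 ER genes there. The 5913 genes between 7 and 9 had a median of -0.29, and the 16 ER genes there -0.84. Between 9 and 11, 1771 genes had a median of -1.15 and the 7 ER genes -1.23. At 11 and over, 762 genes had a median of -1.53 and the 7 ER genes -1.32. In the 2 brightest classes the ER median was thus close to that of all genes, and the distance was wider between 7 and 9. At an unadjusted p under 0.05, 15.1% of all genes between 7 and 9 were lower, 22.8% between 9 and 11 and 23.1% at 11 and over, while 6 of 16, 4 of 7 and 3 of 7 ER genes were. On injured replicate 1 alone, genes from 7 up showed no such slope, with medians of 0.01, 0.09 and 0.01 in these 3 classes, and the ER genes there had medians of -0.06, -0.37 and -0.47.

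**Figure D2:**
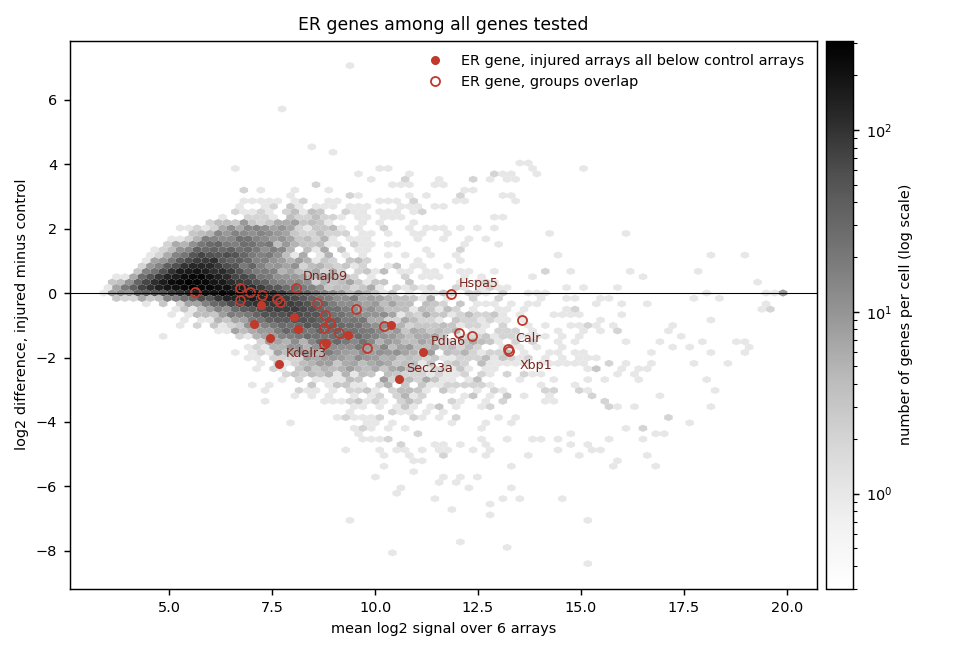
Mean log2 signal over the 6 arrays (horizontal axis) against the log2 difference, injured minus control (vertical axis), for 22093 genes as grey cells whose shade gives the number of genes on a log scale, and for the 34 ER genes as circles (filled where all injured arrays lie below all control arrays). The dense part of the grey cloud slopes downward with brightness; Kdelr3 (-2.20) lies near its lower edge, Sec23a (-2.66) lies among many other genes of its brightness, and Hspa5 (-0.03) and Dnajb9 (0.17) lie near the zero line.

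Leaving out arrays changed what passed. With injured replicate 1 left out, so that injured replicates 2 and 3 were set against the 3 control arrays, 25 of the 34 genes (73.5%) were lower at a limma adjusted p under 0.05 and 0 were higher, against 21.6% and 39.1% of all genes. The 9 genes not called there were Hspa5, Hsp90b1, Hyou1, Dnajb9, Sdf2l1, Creld2, Ern1, Creb3l1 and Sec61a1. With injured replicate 1 alone against the 3 control arrays, with the spread taken from the control arrays, 0 of 34 genes passed at an adjusted p under 0.05, against 9 of all genes (0.0407%). There, 4 ER genes were lower at an unadjusted p under 0.05 (Pdia4, Pdia6, Ssr3 and Sec23a; 11.8%, against 2.03% of all genes) and 3 were higher (Atf6, Xbp1 and Herpud1; 8.82%, against 4.56% of all genes). Scaling mattered for the background: the median difference of all genes was -0.28 after quantile normalization and -0.38 after centring each array on its median, and of all genes at an unadjusted p under 0.05 the lower ones made up 80.9% and 83.8%, against 62.3% for the values as deposited. On the deposited values that share was 48.0% with eBayes trend and robust settings and 46.2% with the replicate number as a block. Quantile normalization put the ER genes' median at -1.19, beside the -0.28 of all genes. Centring put it at -1.50, beside -0.38.

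Of the 3 sensors, Eif2ak3 differed between the groups without overlap, and Ern1 lay closest to 0. Ern1, which encodes the kinase and RNase IRE1 that splices Xbp1 mRNA, had log2 signals of 7.17, 6.92 and 6.84 on injured replicates 1, 2 and 3 and 6.98, 6.91 and 6.98 on control replicates 1, 2 and 3. The arrays of both groups overlapped, and the difference was 0.02 with a 95% interval of -0.36 to 0.40. Eif2ak3, which encodes the kinase PERK that slows translation, read 7.88, 7.70 and 7.38 on the injured arrays and 8.03, 8.55 and 8.59 on the control arrays. Every injured array was below every control array, by 0.15 at the nearest, and the difference was -0.74 (SE 0.23; limma adjusted p = 0.322). Atf6, which encodes the sensor that is cut in the Golgi to release a transcription factor, read 10.85, 8.67 and 8.33 on the injured arrays and 9.81, 9.78 and 9.78 on the control arrays. The injured arrays lay on both sides of a narrow control range, at 1.06 from the control mean on replicate 1 and at -1.12 and -1.46 on replicates 2 and 3, so the mean difference of -0.51 (SE 0.67) describes none of them.

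Xbp1 and Atf4 had the same split as Atf6. Each gene has 1 RNA signal per array here, so splicing of Xbp1, translation of Atf4 and cutting of ATF6 were not measured. Xbp1, the factor activated by IRE1, read 14.68, 11.76 and 10.60 on injured replicates 1, 2 and 3 and 14.03, 14.29 and 14.14 on the control arrays. It was 0.53 above the control mean on injured replicate 1 and differed by -2.39 and -3.55 on replicates 2 and 3, a mean difference of -1.81 (SE 1.03). Atf4, the factor translated when PERK is active, read 10.40, 7.05 and 7.22 on the injured arrays and 9.89, 9.33 and 8.72 on the control arrays. Injured replicate 1 was again the highest of all 6 arrays and replicates 2 and 3 the lowest, and the mean difference was -1.09 (SE 0.97). Ddit3, which encodes the stress factor CHOP downstream of ATF4, read 7.29, 6.84 and 7.0 on the injured arrays and 7.52, 7.35 and 7.35 on the control arrays. The groups did not overlap, but the gap was only 0.06, and the difference was -0.36 (SE 0.18).

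Neither membrane-bound factor of the CREB3 family was above the control mean on injured replicate 1, and only Creb3l2 differed without overlap. Creb3l2, a factor that drives Sec23a in mouse chondrocytes, read 6.79, 6.36 and 6.60 on the injured arrays and 7.18, 7.73 and 7.74 on the control arrays. All injured arrays were lower, including replicate 1 at -0.76 against the control mean, and the difference was -0.97 (SE 0.23; limma adjusted p = 0.322). On injured replicate 2 its signal was below the median unnamed probe set of that array, so background limits the size of its difference. Creb3l1, which is known to control type I collagen in mouse bone, read 6.38, 6.73 and 6.72 on the injured arrays and 6.29, 6.94 and 7.20 on the control arrays. The groups overlapped, with a difference of -0.20 and a 95% interval of -0.89 to 0.49. Without control replicate 1 they did not overlap, and the difference was -0.46. Without control replicate 3 it was -0.005. After quantile normalization it was -0.66, and after centring -0.73.

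Chaperones and co-chaperones of the lumen differed least of the larger roles, with a median difference of -0.04 over 8 genes. At an unadjusted p under 0.05, 0 of them were lower and 0 higher, against 7.25% and 4.39% of all genes. Sdf2l1 and Creld2 have a mean signal under 7, and Hyou1, Dnajb9, Dnajb11 and Dnajc3 one between 7 and 9. All genes in these 2 classes had medians of 0.33 and -0.29. Hspa5, the Hsp70 chaperone BiP that binds the sensors and is the usual readout of the UPR, read 12.04, 11.95 and 11.52 on the injured arrays and 11.42, 12.33 and 11.84 on the control arrays. The groups overlapped, and the difference was -0.03 with a 95% interval of -0.74 to 0.69. This value moved with the scaling, to -0.42 after quantile normalization and -0.55 after centring. The median of all genes was -0.28 and -0.38 there. Hsp90b1, the Hsp90 of the ER (GRP94), read 13.39, 12.69 and 13.32 on the injured arrays and 13.37, 14.34 and 14.23 on the control arrays. The groups met within 0.02, and the difference was -0.85 (SE 0.34). Dnajc3, a co-chaperone that also inhibits PERK, read 9.54, 6.98 and 7.36 on the injured arrays and 9.56, 9.76 and 9.30 on the control arrays. It was at the control mean on injured replicate 1 and differed by -2.56 and -2.18 on replicates 2 and 3.

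Dnajb11, a J protein that helps BiP bind clients, read 8.00, 7.17 and 7.48 on the injured arrays and 7.71, 7.97 and 7.76 on the control arrays, with the highest value on injured replicate 1. Its difference was -0.26 (SE 0.25). The remaining 4 lay close to 0: Dnajb9, a J protein that represses IRE1, differed by 0.17, Creld2, a known UPR target, by 0.14, Sdf2l1, a partner of Dnajb11, by 0.02, and Hyou1, the Hsp110-like exchange factor of BiP, by -0.06. The sign for Dnajb9, Creld2 and Sdf2l1 turned to below 0 when arrays were centred on their medians, and that of Creld2 and Sdf2l1 also after quantile normalization. Sdf2l1 was dim, between 5.51 and 5.70 on all 6 arrays and below the median unnamed probe set on 3 of them. A decrease could therefore be hidden by background at its signal. The interval of its difference, -0.32 to 0.37 (SE 0.14), limits the size of a rise in the values as deposited.

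Of the 7 genes with an ER stress element, the 6 whose sites are printed had a wide range of differences. These were -1.81 for Xbp1, -1.74 for Calr, -1.58 for Dnajc3, -0.85 for Hsp90b1, -0.03 for Hspa5 and 0.14 for Creld2. On injured replicate 1 the same 6 genes lay between -0.59 (Hsp90b1) and 0.53 (Xbp1) of the control mean.

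All 6 disulfide isomerases and lectin chaperones had a lower mean in injured tendon, with a median difference of -1.43. On injured replicate 1, 5 of the 6 lay below the control mean. At an unadjusted p under 0.05, 5 were lower, against 7.25% of all genes. Pdia3, Pdia6, Calr and Canx lie in the brightness class at 11 and over, where all genes had a median of -1.53 and 23.1% were lower. Pdia6, an isomerase that also attenuates IRE1 and PERK, read 10.85, 9.67 and 10.23 on the injured arrays and 12.02, 12.47 and 11.76 on the control arrays. The groups were 0.91 apart at the nearest, the widest gap of the 34 genes, and the difference was -1.83 (SE 0.36), or 3.56-fold lower. Pdia4, an isomerase with additional thioredoxin domains, read 8.15, 7.78 and 8.17 on the injured arrays and 8.90, 9.95 and 9.88 on the control arrays. All injured arrays were lower and close to each other, and the difference was -1.54 (SE 0.33). Calr, the lectin calreticulin, read 13.62, 10.96 and 12.48 on the injured arrays and 13.58, 14.45 and 14.24 on the control arrays. Injured replicate 1 was within the control range, and the difference was -1.74 (SE 0.69).

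P4hb, which is both a disulfide isomerase and the beta subunit of collagen prolyl 4-hydroxylase, read 10.12, 9.87 and 9.70 on the injured arrays and 10.54, 11.28 and 10.80 on the control arrays. The groups did not overlap, and the difference was -0.98 (SE 0.24), with -0.75 on injured replicate 1. Pdia3 (ERp57), the isomerase that works with the lectins, differed by -1.32 (SE 0.50), and Canx, the membrane-bound lectin calnexin, by -1.23 (SE 0.58). Both overlapped between the groups on injured replicate 1, where Canx was 0.01 from the control mean.

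Genes of ER-associated degradation were the role in which injured replicate 1 was above the control mean for every gene. Edem1, which picks misfolded glycoproteins for disposal, read 9.80, 7.65 and 7.89 on the injured arrays and 8.30, 9.22 and 8.71 on the control arrays. Sel1l, the adaptor of the ubiquitin ligase Hrd1, read 9.78, 7.57 and 7.99 on the injured arrays and 9.33, 9.62 and 9.20 on the control arrays. Herpud1, a stress-induced scaffold of the same complex, read 8.46, 7.0 and 7.13 on the injured arrays and 8.01, 7.51 and 7.62 on the control arrays. For all 3 genes injured replicate 1 was the highest of the 6 arrays and replicates 2 and 3 the lowest. The mean differences were -0.30 for Edem1 (SE 0.63), -0.94 for Sel1l (SE 0.59) and -0.18 for Herpud1 (SE 0.43), and those of Edem1 and Herpud1 turned to 0.10 and 0.08 without injured replicate 2.

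**Figure D3:**
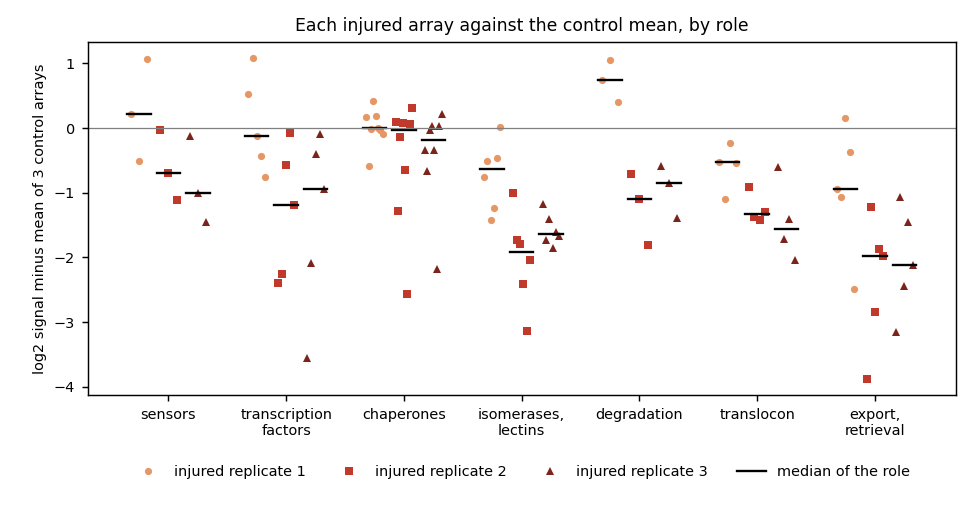
Log2 signal of each ER gene on each injured array minus the mean of the 3 control arrays (vertical axis), by role (horizontal axis), with replicates by colour and marker and the median of each role as a black bar. On injured replicate 1 the degradation genes have a median of 0.75, while the export and retrieval genes have a median of -0.95 there and of -1.98 and -2.12 on injured replicates 2 and 3.

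Translocon genes had a median difference of -1.16 over 4 genes, and no injured array reached the control mean for any of the 4. Sec61b, the beta subunit of the Sec61 channel, read 7.05, 6.77 and 6.42 on the injured arrays and 7.40, 8.64 and 8.38 on the control arrays. The groups did not overlap, and the difference was -1.39 (SE 0.37). On injured replicate 3 its signal was below the median unnamed probe set, so the size of this difference is limited by background. Ssr3, the gamma subunit of the translocon-associated protein complex (TRAP), read 9.46, 8.70 and 7.95 on the injured arrays and 10.03, 10.04 and 9.91 on the control arrays. All injured arrays were lower, and the difference was -1.29 (SE 0.39). Ssr1, the alpha subunit of TRAP, read 10.50, 9.32 and 9.33 on the injured arrays and 10.18, 11.11 and 10.92 on the control arrays, with injured replicate 1 inside the control range. It differed by -1.02 (SE 0.43), and Sec61a1, the pore subunit, by -0.68 (SE 0.37).

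Export and retrieval genes had the lowest median of the 7 roles, -1.71 over 5 genes. At an unadjusted p under 0.05, 4 of the 5 were lower, against 7.25% of all genes. Sec23a, which encodes the inner COPII coat protein needed for collagen export, read 10.97, 8.04 and 8.77 on the injured arrays and 11.84, 11.90 and 12.02 on the control arrays. The control arrays spanned 0.18 and all injured arrays lay at least 0.87 below them. The difference was -2.66 (SE 0.75), or 6.32-fold lower, and injured replicate 1 was -0.95 from the control mean. Its limma adjusted p was 0.322 over all 6 arrays and 0.00175 without injured replicate 1. Sec24d, its cargo-binding partner in the coat, read 7.62, 7.47 and 7.63 on the injured arrays and 7.99, 8.99 and 9.09 on the control arrays. The injured arrays lay within 0.16 of each other and below all control arrays, and the difference was -1.12 (SE 0.32).

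Kdelr3, a receptor that returns escaped ER proteins from the Golgi, read 6.28, 6.78 and 6.64 on the injured arrays and 7.47, 9.16 and 9.66 on the control arrays. The groups were 0.69 apart, and the difference was -2.20 (SE 0.58), or 4.58-fold lower. Injured replicate 1 was the lowest array here, at -2.48 from the control mean, against -1.98 and -2.12 on replicates 2 and 3. The injured arrays were near the background, at 6.28 against 5.59, 6.78 against 6.61 and 6.64 against 6.50 for the median unnamed probe set, so the size of the difference is limited. Kdelr2, the related receptor, differed by -1.23 (SE 0.48), with -0.37 on injured replicate 1. Mia3, which encodes TANGO1, the receptor that loads bulky procollagen at ER exit sites, read 10.82, 7.81 and 8.22 on the injured arrays and 10.80, 10.77 and 10.41 on the control arrays. Injured replicate 1 was just above the highest control array and replicates 2 and 3 were far below it, for a difference of -1.71 (SE 0.81).

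The 11 genes with no overlap in signal between the groups were P4hb, Pdia4, Pdia6, Eif2ak3, Ddit3, Creb3l2, Sec61b, Ssr3, Sec23a, Sec24d and Kdelr3. They include neither a member of the chaperone role nor a degradation gene. Without control replicate 1 the count was 18 (52.9%, against 11.8% of all genes), and without injured replicate 1 it was 26 (76.5%, against 30.4% of all genes). Tenocyte markers were lower on all 3 injured arrays as well (8 of 9 without overlap, against 8.0% of all genes). Of the 9 muscle markers, 2, 9 and 9 were below the control mean on injured replicates 1, 2 and 3 (1 of 9 without overlap). Whether either list has a part in the ER differences was not tested.

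The place of the genes within an array does not depend on the scale of that array, so each gene was ranked among the 22093 genes of its array. Several of the brightest ER genes stayed near the top. Hspa5 was at the 96.7, 98.7 and 98.3 percentile on the injured arrays and at 95.4, 97.1 and 97.1 on the control arrays. For Calr the percentiles were 98.4, 97.9 and 98.9 in injured and 98.4, 98.9 and 99.0 in control tendon, beside its difference of -1.74. Some genes of middling signal ranked lower in injured tendon. Kdelr3 was at the 50.5, 49.9 and 47.0 percentile on the injured arrays and at 70.4, 86.1 and 91.1 on the control arrays. Creb3l2 had percentiles of 60.4, 34.5 and 45.6 in injured and 66.6, 72.9 and 74.5 in control tendon, and Sec61b had 64.6, 49.6 and 39.1 in injured and 69.4, 82.2 and 82.2 in control tendon. Pdia4 had 77.9, 80.5 and 85.6 in injured and 84.2, 90.7 and 92.2 in control tendon, so that its groups overlapped by rank. By rank the groups also overlapped for P4hb, Pdia6, Eif2ak3, Ssr3 and Sec24d, all of which were without overlap in signal. P4hb was at 91.4, 96.1 and 95.4 in injured and 92.9, 95.3 and 95.2 in control tendon. For Ddit3, Creb3l2, Sec61b, Sec23a and Kdelr3 the groups stayed apart by rank. Dnajb9 ranked higher in injured tendon on every array, at 80.4, 85.1 and 83.5, against 78.0, 74.1 and 77.0 on the control arrays. The median of the 34 genes was at the 87.8, 79.7 and 82.8 percentile on the injured arrays and at 84.8, 88.8 and 89.6 on the control arrays.

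**Figure D4:**
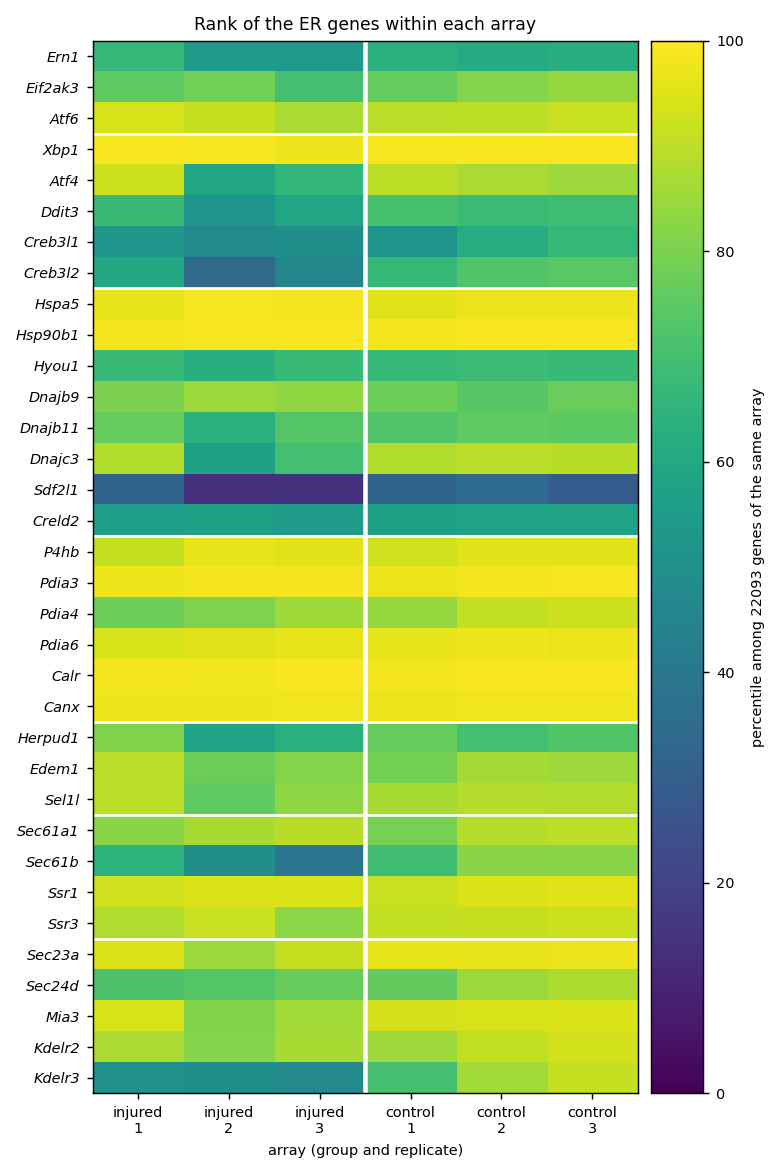
Percentile of each of the 34 ER genes (rows, by role from sensors at the top to export and retrieval at the bottom) among 22093 genes of the same array (columns, injured left of control), with brighter colours for higher ranks. Kdelr3 is near the middle of the injured arrays and at the 70.4 to 91.1 percentile of the control arrays, while Hspa5 and Calr stay at or above the 95.4 percentile on all 6.

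The wider ER machinery was read from 118 further genes, of which 112 were measured. Their median difference was -0.70. At an unadjusted p under 0.05, 26 were lower and 1 was higher, against 7.25% and 4.39% of all genes. At a limma adjusted p under 0.05, 0 passed. Without overlap, 22 lay below and 3 above the control arrays, against 8.0% and 7.09% of all genes. Their median was -0.02, -1.23 and -0.99 on injured replicates 1, 2 and 3. The same 7.25% is the share of all genes for each count of lower genes in the lists that follow. Other translocon, signal peptidase and glycosylation genes were the lowest of these lists, with a median of -1.20 over 26 genes and 10 at an unadjusted p under 0.05, all lower. Among these 10, Spcs1, a signal peptidase subunit, differed most. It read 12.47, 9.84 and 10.36 on the injured arrays and 12.75, 13.43 and 13.37 on the control arrays (difference -2.29, SE 0.71).

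Other COPII, cargo receptor and retrieval genes had a median of -0.81 over 25 genes, with 5 lower at an unadjusted p under 0.05. Tmed10, a p24 cargo receptor, read 12.40, 9.74 and 10.11 on the injured arrays and 12.66, 13.11 and 12.75 on the control arrays (difference -2.09, SE 0.72). Other degradation genes had a median of -0.52 over 19 genes, with 2 lower, of which Erlec1, an ER lectin, differed by -2.62 (SE 0.89). Relative to the control mean, the median of these 19 genes was 0.36 on injured replicate 1, where 6 of them, Erlec1 included, were below it, and -1.32 and -1.36 on replicates 2 and 3.

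Other UPR signalling genes and targets had a median of -0.10 over 20 genes, with 4 lower and 0 higher at an unadjusted p under 0.05. Serp1, which protects membrane proteins from degradation under stress, differed by -2.00 (SE 0.63). Other chaperones, oxidoreductases and genes of the calnexin cycle had a median of -0.29 over 22 genes, with 5 lower, of which Dnajc10, a disulfide reductase of the ER, differed by -1.79 (SE 0.62). The 1 gene higher at that threshold in all 112 was Ero1a, the oxidase that recharges P4hb. Ero1a read 9.01, 11.27 and 10.35 on the injured arrays and 8.83, 8.86 and 8.34 on the control arrays. Every injured array was above every control array, and the difference was 1.53 (SE 0.58; limma adjusted p = 0.322).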

How the data were processed

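Signals were measured on 6 arrays. The authors deposited them as log2 values, 68842 probe sets for each array, and the scale is inferred from their range. The submitters' processing notes name Affymetrix Expression Console, while its version and the background correction and normalization used are not stated in the sources at hand. No ER gene came within 0.02 of the highest value of any array. By the platform annotation, 23446 probe sets have 1 gene symbol, 505 have more and 44891 have no name; the last serve as the background level.

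Values were used as deposited. Injured and control tendon were compared with limma 3.58.1 in R 4.3.3 (lmFit and eBayes, two-sided) across all 22093 genes, with Benjamini-Hochberg adjustment over all of them. Differences are injured minus control, SE is the standard error, and intervals are 95%. The fit was also run on simulated data. That outcome is not given here, so no conclusion about the fit on these arrays rests on it. With 3 arrays a group, exact permutation could reach 0.1 at the lowest, so it was not used. The number of arrays limits the precision. Beyond the label nothing says that samples came from separate animals, so p-values may not measure the spread between animals.

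The genes and lists were chosen with earlier results of these data known. Of the ER genes, array values are given for the sensors, the transcription factors, Hspa5 and the 3 largest differences of each other role. Array values of P4hb, Sec24d, Spcs1 and Tmed10 and the ranks named were chosen after the values were seen. Of the other lists, the gene farthest from 0 on each side, among those with an unadjusted p under 0.05, is named. Protein ends could not be read here, since no protein table was used. The site of 1 motif match is not reported here. Alternatives were other scalings, a filter on dim genes, the mean of probe sets, other eBayes settings, array weights, the replicate number as a block, and arrays left out.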

Additional observations from a re-analysis of the deposited data

How the results depend on the processing

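The count of genes past the adjusted threshold was 0 under quantile normalization, centring, the filter on dim genes, probe set means, eBayes with trend and robust, and the replicate block, of all genes and of the ER genes. The same-numbered arrays' deviations from their group means correlated at 0.48, -0.04 and 0.59. With 3 arrays a group, these values cannot decide whether the numbers pair the samples. With the replicate block, 9.54% of all genes were lower at an unadjusted p under 0.05, against 7.25% without it. Of the ER genes, 9 were lower with it, against 13 without it. Pdia3, Calr, Eif2ak3 and Kdelr2 were those lost, and the block changed no call at the adjusted threshold. With array weights, which gave injured replicate 1 a weight of 0.0687, 16102 genes and 27 ER genes passed. All 27 were lower, against 27.5% of all genes lower and 45.4% higher at that threshold. At an unadjusted p under 0.05, 27 ER genes were lower, against 28.5% of all genes. There, 1 ER gene was higher, against 10349 of all 22093 genes. Sdf2l1 and Ern1 turned to -0.0027 and -0.072. The default method of these weights did not converge, and the gene-by-gene method was used. With injured replicate 1 alone, 9 genes passed, 4 ER genes were lower and 3 higher at an unadjusted p under 0.05, and the ER median was -0.18. Leaving out each array in turn gave 0 to 13418 genes and 0 to 25 ER genes past the threshold, 7 to 26 lower at an unadjusted p under 0.05 and 11 to 26 without overlap. The upper ends are those without injured replicate 1, where 23.9% of all genes were lower at that p, and 7 is without control replicate 2, where 3.05% were. Alternatives chosen after the data were seen left out injured replicate 1 under another scaling: 14324 genes and 31 ER genes passed after quantile normalization (50.6% of all genes lower) and 15426 and 34 after centring (57.8%). The cause was not tested.

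Differences that turned sign were small or split between arrays. With injured replicate 1 alone they were 0.18 for Hspa5, 0.19 for Dnajb11, -0.023 for Sdf2l1, -0.10 for Creld2, 0.01 for Canx, 1.06 for Atf6, 0.53 for Xbp1, 1.09 for Atf4, 0.75 for Herpud1, 1.06 for Edem1, 0.40 for Sel1l and 0.16 for Mia3. After centring they were -0.35 for Dnajb9, -0.50 for Sdf2l1, -0.38 for Creld2 and -0.51 for Ern1, and after quantile normalization -0.47 for Sdf2l1, -0.32 for Creld2 and -0.43 for Ern1. Hyou1 was 0.16 with the mean of its probe sets. Leaving out each array in turn gave -0.25 to 0.21 for Hspa5, -0.033 to 0.062 for Sdf2l1, -0.077 to 0.088 for Ern1, -0.65 to 0.082 for Herpud1 and -0.97 to 0.10 for Edem1.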
